A study of Mus musculus with 8 samples.

Results

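Chaperone and protein-folding genes were read in peak lists of PBRM1 and BRG1, the bromodomain subunit and the ATPase of the PBAF chromatin-remodeling complex. Members were the protein-coding genes of chromosomes 1 to 19 whose GENCODE symbol starts with Pdia and a digit, with Hspa, Hspb, Hspd, Hspe, Hsph or Hsp90, or with Dnaja, Dnajb or Dnajc and a digit. This gave 79 of 20807 protein-coding genes. The 14 matching entries that are not protein-coding were left out. The members were split by the textbook location of the protein into 12 of the endoplasmic reticulum (ER) lumen, 7 J proteins of the ER membrane, 33 of the cytosol (small and inducible heat shock proteins of nucleus and cytosol included), 9 of the mitochondrion and 18 others.

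ChIC-Seq (chromatin immunocleavage sequencing, in which an antibody brings micrococcal nuclease to its target on fixed chromatin) was performed on primary uterine stromal cells of WT mice. The labels give day 4 (D4) of pregnancy as the time and also call the females pseudopregnant. Horns of several mice aged 8 to 12 weeks were pooled, the cells were plated for some hours, and the labels give 50000 cells per library, fixed for 5 min and digested for 3 min. There were 3 replicates with the PBRM1 antibody and 3 with the BRG1 antibody, all from untreated WT cells, and 1 pooled list per antibody, so that 8 lists were read. The 2 IgG libraries were not analysed here, so that no list has a background measured with a control antibody.

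Chaperones bind unfolded proteins and keep them from aggregating. HSP70 proteins (Hspa genes) hold short stretches in cycles of ATP hydrolysis that J proteins (Dnaj genes) start, HSP90 proteins act later on partly folded clients, small heat shock proteins (Hspb genes) hold proteins without ATP, and protein disulfide isomerases (Pdia genes) form and rearrange disulfide bonds in the ER. In the unfolded protein response, the ER sensors IRE1, PERK and ATF6 raise the transcription of ER chaperones through ER stress elements, whereas cytosolic and mitochondrial chaperones are induced by HSF1 through heat shock elements. Stromal cells that go on to decidualize expand their secretory pathway, which makes the ER machinery a system of known interest in this tissue.

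The promoters of 7 members are given first. They were picked because they hold an exact element of these pathways or, for *Pdia4*, the strongest peak of all members. Other members with an exact element, such as *Dnajc11*, are not printed. Each window runs from 250 bases before a transcription start site (TSS) to 50 bases from it, 5′ to 3′ on the strand of the gene, and was read from the RefSeq genome of GRCm38.p6 at a GENCODE TSS. Capitals mark the bases of an exact element on either strand. All 300 bases of each of the 7 windows lay inside both the pooled PBRM1 and the pooled BRG1 peak.
*Hspa5*, chr2:34771845-34772144, plus strand: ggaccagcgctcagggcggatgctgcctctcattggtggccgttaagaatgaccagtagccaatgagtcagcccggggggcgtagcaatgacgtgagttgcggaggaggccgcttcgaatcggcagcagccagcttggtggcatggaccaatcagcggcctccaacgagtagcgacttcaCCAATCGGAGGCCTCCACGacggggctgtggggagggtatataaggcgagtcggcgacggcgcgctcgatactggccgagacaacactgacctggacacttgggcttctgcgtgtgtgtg
*Hsp90b1*, chr10:86705460-86705759, minus strand: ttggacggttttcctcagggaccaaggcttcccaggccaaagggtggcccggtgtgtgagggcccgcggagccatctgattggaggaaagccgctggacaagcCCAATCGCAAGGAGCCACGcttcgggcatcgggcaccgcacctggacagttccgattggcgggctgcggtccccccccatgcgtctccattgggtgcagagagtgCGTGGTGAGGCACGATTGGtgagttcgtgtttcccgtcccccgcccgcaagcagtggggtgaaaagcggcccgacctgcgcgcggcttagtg
*Pdia6*, chr12:17266295-17266594, plus strand: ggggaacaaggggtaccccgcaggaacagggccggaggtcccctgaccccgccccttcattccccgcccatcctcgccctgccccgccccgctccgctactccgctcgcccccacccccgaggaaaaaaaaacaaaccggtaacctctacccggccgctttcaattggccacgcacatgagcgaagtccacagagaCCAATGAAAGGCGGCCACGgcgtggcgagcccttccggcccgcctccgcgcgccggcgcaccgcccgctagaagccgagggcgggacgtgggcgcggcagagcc
*Dnajc3*, chr14:118937726-118938025, plus strand: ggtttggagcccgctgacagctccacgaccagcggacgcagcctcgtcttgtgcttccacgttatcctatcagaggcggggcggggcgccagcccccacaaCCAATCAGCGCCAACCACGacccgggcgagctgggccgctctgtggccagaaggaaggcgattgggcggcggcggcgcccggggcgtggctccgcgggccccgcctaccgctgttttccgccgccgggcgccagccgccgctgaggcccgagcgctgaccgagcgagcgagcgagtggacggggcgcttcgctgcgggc
*Dnajb11*, chr16:22857595-22857894, plus strand: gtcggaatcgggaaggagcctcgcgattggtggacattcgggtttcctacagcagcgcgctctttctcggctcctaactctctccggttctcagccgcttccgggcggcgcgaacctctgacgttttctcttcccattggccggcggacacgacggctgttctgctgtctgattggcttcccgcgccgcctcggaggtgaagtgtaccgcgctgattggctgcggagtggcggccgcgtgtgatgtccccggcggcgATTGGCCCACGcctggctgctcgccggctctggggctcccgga
*Pdia4*, chr6:47813381-47813680, minus strand: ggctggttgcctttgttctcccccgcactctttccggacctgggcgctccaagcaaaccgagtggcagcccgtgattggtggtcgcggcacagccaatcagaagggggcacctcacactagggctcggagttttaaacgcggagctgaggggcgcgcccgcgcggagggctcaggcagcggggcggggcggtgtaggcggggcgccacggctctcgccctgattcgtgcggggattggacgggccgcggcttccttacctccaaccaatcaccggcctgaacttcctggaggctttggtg
*Hspe1*, chr1:55087882-55088181, plus strand: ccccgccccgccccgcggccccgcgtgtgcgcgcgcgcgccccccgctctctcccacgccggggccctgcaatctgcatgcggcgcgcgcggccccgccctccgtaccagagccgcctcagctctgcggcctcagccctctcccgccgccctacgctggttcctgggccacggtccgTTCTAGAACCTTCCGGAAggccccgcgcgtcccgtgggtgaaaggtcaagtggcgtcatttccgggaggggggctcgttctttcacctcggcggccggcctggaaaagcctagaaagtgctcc
The window of *Hspa5* is that of a TSS inside the gene record, taken because the window at the 5′ end of the record holds no exact element. The other windows are those at the 5′ end of the gene record.

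The PBRM1 replicates held between 8868777 and 16505239 fragments, and those of BRG1 between 11506964 and 14595089. The PBRM1 replicates gave 21912 to 26363 peaks and the BRG1 replicates 36656 to 40610. The deepest PBRM1 library, replicate 3, had the fewest peaks and the lowest median fold enrichment at promoters (5.75, against 6.81 and 7.57 in the other two), so the lead of ER over cytosolic genes is also given without it. Fold enrichment is the fragment pileup at the summit over the local background of the same library, and is not on 1 scale across libraries. Each gene was therefore also given a percentile, its rank by the fold enrichment of its strongest promoter peak among all coding genes with a promoter peak in the same list. Of the stromal marker genes, 7 of 10 had a promoter peak in all 6 replicates, with *Vim* at 5.01 ± 1.09 (SD, n = 3) for PBRM1 and 6.21 ± 0.650 for BRG1, while *Col3a1* had none in a BRG1 replicate. The same held for 1 of 8 epithelial and 1 of 5 endothelial markers, and none of the 5 immune markers had a peak in any replicate. Over all coding genes, 53.5% had a peak in all 6 replicates. With BRG1 alone, 9 stromal, 4 epithelial and 3 endothelial markers had a peak in all 3 replicates, beside 62.9% of all coding genes. The median percentile of the stromal markers with a peak was 7.34 ± 2.27 for PBRM1 and 10.7 ± 3.47 for BRG1. It was 14.9 ± 5.27 and 19.02 ± 0.695 for the epithelial markers, and 26.2 ± 6.55 and 21.6 ± 13.9 for the endothelial markers. A promoter peak does not show expression, so these counts and ranks describe the lists and not the purity of the cells.

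Most chaperone promoters had peaks with both antibodies. A promoter peak, meaning a peak within 2000 bp of any TSS of the gene, was found at 68, 72 and 70 of the 79 members in the 3 PBRM1 replicates, where 61.6%, 62.2% and 56.9% of all coding genes had one. In the 3 BRG1 replicates, 73, 71 and 74 members had one, beside 67.7%, 66.6% and 66.6% of all coding genes. In the pooled lists the counts were 75 for PBRM1 and 76 for BRG1, against 70.2% and 73.7% of all coding genes. All 3 PBRM1 replicates had a peak at 67 members (84.8%, against 53.8% of all coding genes), all 3 BRG1 replicates at 71 (89.9%, against 62.9%), and all 6 replicates at 67 (84.8%, against 53.5%). Thus each member that was called in every PBRM1 replicate was also called in every BRG1 replicate. The same held for 11134 of the 11199 coding genes called in every PBRM1 replicate, so this is not particular to the members. The share of members was 88.6% ± 2.53 (SD, n = 3) for PBRM1 and 92.0% ± 1.93 for BRG1. The difference of -3.38 percentage points did not pass a two-sided exact permutation test (p = 0.2, where 3 against 3 cannot go below 0.1), and the 2 sets of replicates overlapped. Over all coding genes the shares were 60.3% ± 2.89 and 66.9% ± 0.619 without overlap (exact permutation p = 0.1, the smallest possible).

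Few members were without a peak. No list held a promoter peak at *Dnajb7*, *Dnajb8* or *Dnajc5g*, 3 J protein genes known from testis, whereas 24.8% of all coding genes were without a peak in all 8 lists. The pooled lists alone held one at *Dnajb13*, a J protein of the sperm flagellum, and at *Hspb3*, a small heat shock protein of muscle. A further 3 members had a peak in 2 of 6 replicates. *Pdia2*, a disulfide isomerase best known from pancreas, had peaks of 3.69 and 3.79 fold in BRG1 replicates 1 and 3 and none with PBRM1. Its pooled BRG1 summit was at -2085 bp from its TSS and nearest to the TSS of *Arhgdig* among coding genes. *Dnajc21*, a J protein of ribosome assembly, had peaks of 6.62 and 6.50 fold in the same BRG1 replicates and none in a PBRM1 replicate, though the pooled PBRM1 list held a peak of 4.11 fold. *Dnajc5b* had 1 peak per antibody, of 4.88 fold in PBRM1 replicate 2 and 4.54 fold in BRG1 replicate 3. *Dnajb14*, *Hspa1a* and *Hspa1l* had no peak in PBRM1 replicate 1 and *Dnajc6* none in PBRM1 replicate 3, while all of them had one in each other replicate. *Hspa1a* and *Hspa1l* are assigned the same peak, so these 4 members stand for 3 sites.

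The ER lumen class had the highest median promoter peaks of the 5 classes. Its median fold enrichment was 10.7, 9.14 and 6.67 in the PBRM1 replicates and 11.5, 11.5 and 11.8 in the BRG1 replicates. The median over all members with a peak was 8.08, 7.37 and 6.06 for PBRM1 and 8.54, 8.41 and 8.85 for BRG1. In ranks, the median ER lumen member lay at percentile 78.9 ± 8.75 (SD, n = 3) for PBRM1 and 85.9 ± 0.642 for BRG1, and the median member at 58.0 ± 1.31 and 55.3 ± 2.01, where 50 is the middle of all genes with a promoter peak. Of the 11 ER lumen members with a peak in all 6 replicates, 7 lay above the 50th percentile in every PBRM1 replicate and 10 in every BRG1 replicate, where 38% and 41.7% of the coding genes with a peak in all 3 replicates of the antibody did. None lay below it in all 3 replicates of an antibody, as 27.7% (PBRM1) and 35.9% (BRG1) of those genes did. Every ER lumen gene apart from *Pdia2* is among these 11.

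*Pdia4*, a disulfide isomerase of the ER that works with HSP70 and HSP90 partners, had the strongest peak of all members. Its fold enrichment was 18.3, 14.6 and 12.5 in the PBRM1 replicates and 15.6, 14.7 and 17.3 in the BRG1 replicates. The peak ranked at percentile 99.6 ± 0.223 for PBRM1 and 98.8 ± 0.910 for BRG1, and the summits of the 2 pooled peaks were at the same base, at -78 bp from the TSS. No other member was above the 90th percentile in every replicate of both antibodies. With PBRM1 alone, 3 of 67 members were above it in all 3 replicates, beside 509 of 11199 coding genes. With BRG1 alone, 1 of 71 members was, beside 662 of 13096 coding genes. *Pdia3*, the isomerase that works with calnexin and calreticulin on glycoproteins, had 11.5, 9.14 and 6.87 fold with PBRM1 and 10.9, 11.7 and 11.7 fold with BRG1. *Catsper2* has a TSS within 2000 bp of one of *Pdia3*, and the pooled BRG1 summit was nearest to that of *Catsper2*. *Pdia6*, an isomerase that also limits the signal of the ER sensors, had 10.8, 9.16 and 5.34 fold with PBRM1 and 13.2, 10.2 and 12.7 fold with BRG1. *Pdia5*, a less studied isomerase, had 6.78, 5.92 and 7.39 fold with PBRM1 and 7.83, 10.4 and 9.94 fold with BRG1. For *Pdia3*, *Pdia6* and *Pdia5* the PBRM1 and BRG1 percentiles overlapped.

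*Hspa5* encodes BiP, the HSP70 of the ER lumen and the regulator of its stress sensors. Its fold enrichment was 8.16, 6.96 and 6.30 in the PBRM1 replicates and 11.8, 11.8 and 12.7 in the BRG1 replicates. The percentile was 57.8 ± 4.93 for PBRM1 and 88.9 ± 2.10 for BRG1, and every BRG1 replicate ranked it above every PBRM1 replicate, although the summits of the pooled peaks were 4 bp apart. *Hspa13*, a small HSP70 relative of microsomes, had 7.52, 7.32 and 5.64 fold with PBRM1 and 14.3, 11.8 and 14.1 fold with BRG1, and its percentiles of 51.7 ± 5.87 and 93.7 ± 5.57 did not overlap either. *Hsp90b1*, which encodes the ER HSP90 GRP94, had 8.08, 8.57 and 6.67 fold with PBRM1 and 11.8, 11.5 and 10.2 fold with BRG1, with pooled summits 2 bp apart. Its percentiles of 67.7 ± 9.22 and 81.9 ± 8.47 overlapped. *Ttc41* has a TSS within 2000 bp of one of *Hsp90b1*, though both pooled summits were nearest to a TSS of *Hsp90b1*. Among the ER lumen members, *Hspa5* and *Hspa13* were the ones without overlap between the antibodies.

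The J proteins of the ER lumen, which bring clients to BiP or drive its ATP hydrolysis, were of similar strength. *Dnajc3* (P58IPK) had 11.7, 9.89 and 7.62 fold with PBRM1 and 12.9, 12.8 and 10.5 fold with BRG1. *Dnajb9* (ERdj4), which represses IRE1, varied little, with 10.7, 10.8 and 10.3 fold for PBRM1 and 10.4, 10.3 and 11.9 fold for BRG1. *Dnajb11* (ERdj3) had 9.29, 8.78 and 6.49 fold with PBRM1 and 11.2, 11.5 and 10.2 fold with BRG1. Its start site lies within 2000 bp of that of *Tbccd1*, and the 2 genes share the peak. *Dnajc10* (ERdj5), a reductase that helps misfolded proteins out of the ER, had 10.9, 10.1 and 4.95 fold with PBRM1 and 11.0, 10.5 and 11.9 fold with BRG1. The low PBRM1 value of *Dnajc10* and that of *Pdia6* both came from PBRM1 replicate 3.

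**Figure D1:**
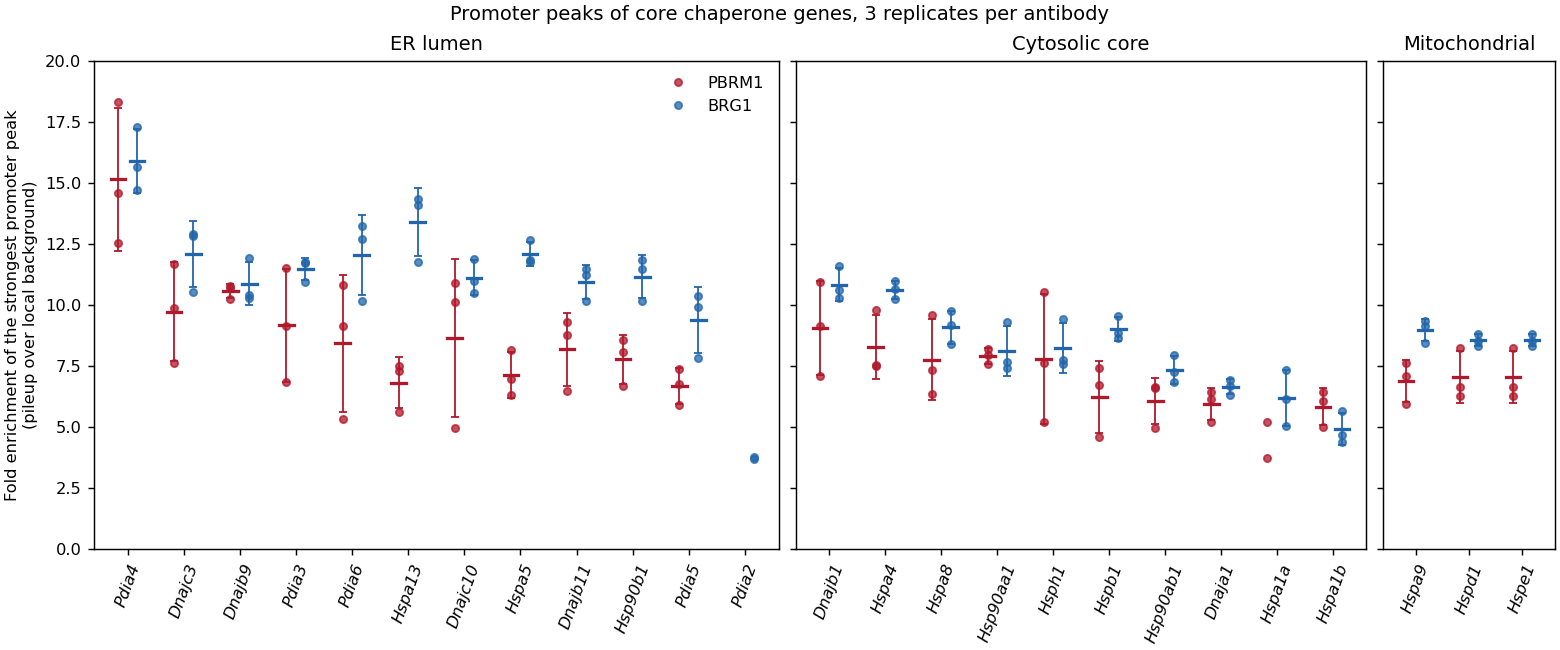
Fold enrichment of the strongest promoter peak (y axis, pileup over local background of the same library) at the ER lumen, cytosolic core and mitochondrial core genes (x axis), with points for replicates, bars for the mean and whiskers for the SD where all 3 replicates had a peak. *Pdia4* stands above the other genes in both antibodies, and *Hspa5* and *Hspa13* have BRG1 points well above their PBRM1 points.

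The 7 J proteins of the ER membrane, most of which face the cytosol with their J domain, were closer to the middle of the ranks, with a median percentile of 60.2 ± 4.40 for PBRM1 and 50.6 ± 3.82 for BRG1. The highest mean over 6 replicates was that of *Dnajc18*, with 9.95, 13.8 and 7.76 fold for PBRM1 and 11.5, 10.7 and 13.6 fold for BRG1. *Dnajb14* had the lowest BRG1 values of the class, with peaks of 4.78 and 2.92 fold in 2 PBRM1 replicates and of 4.75, 4.15 and 3.52 fold with BRG1, with pooled summits at -2492 bp (PBRM1) and -1897 bp (BRG1) from its TSS, both nearest to the TSS of *H2afz* among coding genes. *Dnajc25* ranked at percentile 8.35 ± 2.52 for PBRM1 and 44.6 ± 14.9 for BRG1 without overlap, and *Dnajb12*, which takes part in ER-associated degradation, at 67.2 ± 2.37 and 48.8 ± 4.18, without overlap in the other direction. The strongest pooled PBRM1 and BRG1 peaks of *Dnajc25* did not overlap and had summits 7755 bp apart, so its ranks compare different sites of the gene. *Dnajc1*, *Dnajc14* and *Dnajc16* had means of 6.47 to 8.19 fold with PBRM1 and 7.41 to 9.52 fold with BRG1.

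The cytosolic class lay near the middle of the ranks with PBRM1, at median percentiles of 44.3, 54.2 and 42.8 in the replicates. With BRG1 it lay below the middle in every replicate. Its median fold enrichment was 7.19, 7.06 and 5.45 in the PBRM1 replicates and 7.87, 7.48 and 7.84 in the BRG1 replicates, and its median percentile 47.1 ± 6.16 and 44.3 ± 2.68. Of the 27 cytosolic members with a peak in all 3 PBRM1 replicates, 7 were above the 50th percentile in each (25.9%, beside the 38% of all such genes) and 7 below it. Of the 29 with a peak in all 3 BRG1 replicates, 9 were above (31.0%, beside 41.7%) and 15 below (51.7%, beside 35.9%).

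*Dnajb1*, the J protein that recruits HSP70 to aggregates and to HSF1, had the strongest peak of the cytosolic core, with 11.0, 9.15 and 7.08 fold for PBRM1 and 11.6, 10.6 and 10.3 fold for BRG1. *Hspa4*, a nucleotide exchange factor for HSP70, had 9.82, 7.52 and 7.55 fold with PBRM1 and 10.3, 11.0 and 10.7 fold with BRG1. *Hspa8*, the constitutive HSP70 of the cytosol, had 9.58, 7.35 and 6.35 fold with PBRM1 and 9.17, 8.40 and 9.74 fold with BRG1. These 3 genes ranked above the middle in every replicate, at mean percentiles of 66.1 to 81.7 for PBRM1 and 61.2 to 79.3 for BRG1. *Tecr* has a TSS within 2000 bp of one of *Dnajb1*, though both pooled summits were nearest to a TSS of *Dnajb1*. *Hsph1*, another exchange factor, had 10.5, 7.61 and 5.22 fold with PBRM1 and 9.42, 7.58 and 7.74 fold with BRG1. *Hsp90aa1*, the inducible HSP90, had 7.58, 8.19 and 7.97 fold with PBRM1 and 7.44, 7.65 and 9.31 fold with BRG1. *Hsp90ab1*, the constitutive HSP90, had 6.59, 4.98 and 6.63 fold with PBRM1 and 6.84, 7.24 and 7.95 fold with BRG1. *Hsp90aa1* ranked above *Hsp90ab1* in each of the 6 replicates, although the ranges of their percentiles over replicates overlapped in both antibodies.

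*Hspa1a* and *Hspa1b* encode the HSP70 proteins that heat induces. *Hspa1a* had 5.21 and 3.75 fold in 2 PBRM1 replicates and 6.15, 5.05 and 7.36 fold with BRG1, and the divergent gene *Hspa1l* is assigned the same peaks. *Hspa1b* had 4.99, 6.45 and 6.08 fold with PBRM1 and 4.41, 5.65 and 4.70 fold with BRG1. Both encode nearly the same protein from nearly the same sequence, and read pairs of low mapping quality were removed by the authors, so fragments that both copies share may be missing and these values are uncertain. *Hspb1*, the small heat shock protein HSP27, had 6.72, 7.41 and 4.59 fold with PBRM1 and 8.64, 9.57 and 8.85 fold with BRG1. *Dnaja1*, a J protein of HSP70, had 6.17, 6.45 and 5.22 fold with PBRM1 and 6.32, 6.95 and 6.69 fold with BRG1, and lay below the 50th percentile in all 6 replicates.

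The weakest members with a peak in all 6 replicates were *Hspb7*, *Hspb9*, *Dnajc12*, *Dnajc22* and *Hspb8*, with means over the 6 replicates of 4.11, 4.82, 4.97, 5.12 and 5.33 fold. At *Hspb9*, *Dnajc12* and *Dnajc22* the strongest pooled PBRM1 and BRG1 peaks did not overlap, with summits 1830, 3721 and 4719 bp apart. Their means can thus mix different sites, and the pooled BRG1 summit of *Hspb9* was nearest to a TSS of *Kat2a*. Of the 10 members listed as restricted to testis, muscle or pancreas, 5 had a peak in all 6 replicates, close to the 53.5% of all coding genes. The median percentile of those with a peak was 12.1 ± 6.17 for PBRM1 and 19.6 ± 5.09 for BRG1. The exception was *Hspa2*, an HSP70 of male germ cells, with 9.36, 8.44 and 8.27 fold for PBRM1 and 10.0, 9.29 and 13.6 fold for BRG1.

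The mitochondrial class had a promoter peak at 9 of 9 members in all 6 replicates, beside 53.5% of all coding genes. It lay near the middle of the ranks, at 56.2 ± 7.94 for PBRM1 and 55.9 ± 2.38 for BRG1. *Hspd1* and *Hspe1* encode the chaperonin HSP60 and its lid HSP10, and are divergent genes with 1 promoter and 1 shared peak of 8.26, 6.65 and 6.27 fold with PBRM1 and 8.54, 8.35 and 8.81 fold with BRG1. *Hspa9*, the mitochondrial HSP70 mortalin, had 7.63, 7.11 and 5.96 fold with PBRM1 and 9.13, 8.46 and 9.34 fold with BRG1. *Dnajc11*, a protein of the cristae organizing complex, was the strongest of the class by its mean over 6 replicates, with 10.6, 9.53 and 7.93 fold for PBRM1 and 12.9, 12.9 and 10.5 fold for BRG1. *Dnaja3*, a J protein of mortalin, had the lowest such mean, at 5.46 ± 0.834 and 5.74 ± 0.152 fold. Its strongest pooled PBRM1 and BRG1 peaks did not overlap and had summits 44049 bp apart, so its mean can mix different sites.

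Outside the ER lumen class and the cytosolic and mitochondrial core genes, the members with the highest mean over the 6 replicates were *Dnajc17* (11.9 fold), *Dnajc24* (11.7), *Dnajc18* (11.2), *Hspa14* (11.0) and *Dnajc11* (10.7). *Dnajc17*, a nuclear J protein, had 12.0, 9.65 and 11.2 fold with PBRM1 and 12.1, 13.9 and 12.7 fold with BRG1. *Dnajc24*, which takes part in the diphthamide modification of elongation factor 2, had 11.9, 10.9 and 10.7 fold with PBRM1 and 13.6, 12.1 and 10.9 fold with BRG1. *Hspa14*, an HSP70 of the ribosome, had 8.07, 10.2 and 7.33 fold with PBRM1 and 14.4, 11.9 and 14.0 fold with BRG1. *Dnajc17* and *Hspa14* each have another coding TSS within 2000 bp, of *Zfyve19* and of *Cdnf*, so the peak cannot be given to 1 of the genes. *Dnajc18* also has such a neighbor, *1700066B19Rik*, though both of its pooled summits were nearest to a TSS of *Dnajc18*. The 18 members outside the 4 classes had a median percentile of 58.3 ± 6.18 for PBRM1 and 63.5 ± 1.82 for BRG1.

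The comparison of ER with cytosolic chaperones took both ER classes, 19 genes, against the 33 cytosolic genes. A promoter peak was present at 93.0% ± 3.04 (SD, n = 3) of ER and 85.9% ± 3.50 of cytosolic genes with PBRM1, and at 98.2% ± 3.04 and 89.9% ± 1.75 with BRG1. ER genes were ahead in all 3 replicates of each antibody, by 7.12 ± 0.460 and 8.35 ± 1.29 percentage points, and the two-sided exact sign-flip permutation test over 3 replicates gave p = 0.25 for both, the smallest it can give. Without the tissue-restricted members, the lead was 3.70 points for PBRM1 and 1.39 points for BRG1 (exact permutation p = 0.25 and p = 1). With 1 TSS per gene it was 0.372 points for PBRM1 and -1.17 points for BRG1, so the share did not separate the classes.

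The classes also differed in the strength of their peaks. The median fold enrichment of ER genes was 9.29, 8.23 and 6.46 in the PBRM1 replicates, each above the cytosolic median of the same replicate, and 10.9, 10.4 and 10.4 in the BRG1 replicates, all above the cytosolic medians of 7.48 to 7.87. The difference was 1.43 ± 0.590 for PBRM1 and 2.86 ± 0.274 for BRG1, each with an exact sign-flip permutation p = 0.25, the smallest possible. In ranks, ER genes lay 22.8 ± 5.52 percentile points above cytosolic genes for PBRM1 and 33.2 ± 3.17 for BRG1. ER lumen genes alone were ahead by 2.27 ± 1.15 fold units with PBRM1 and 3.87 ± 0.210 with BRG1, and mitochondrial genes by 0.494 ± 0.792 and 0.916 ± 0.219. ER membrane genes alone were closer to the cytosolic class than the lumen genes were. Their median was 7.33 ± 1.10 fold with PBRM1 and 8.23 ± 0.367 with BRG1, beside cytosolic medians of 6.57 ± 0.972 and 7.73 ± 0.215. Without the tissue-restricted members the lead of ER genes was 1.30 ± 0.674 and 2.62 ± 0.407 fold units, and without PBRM1 replicate 3 the lead in PBRM1 was 1.63. Members of a class are different genes read in the same libraries, and the replicates, not the genes, are the n of these tests.

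**Figure D2:**
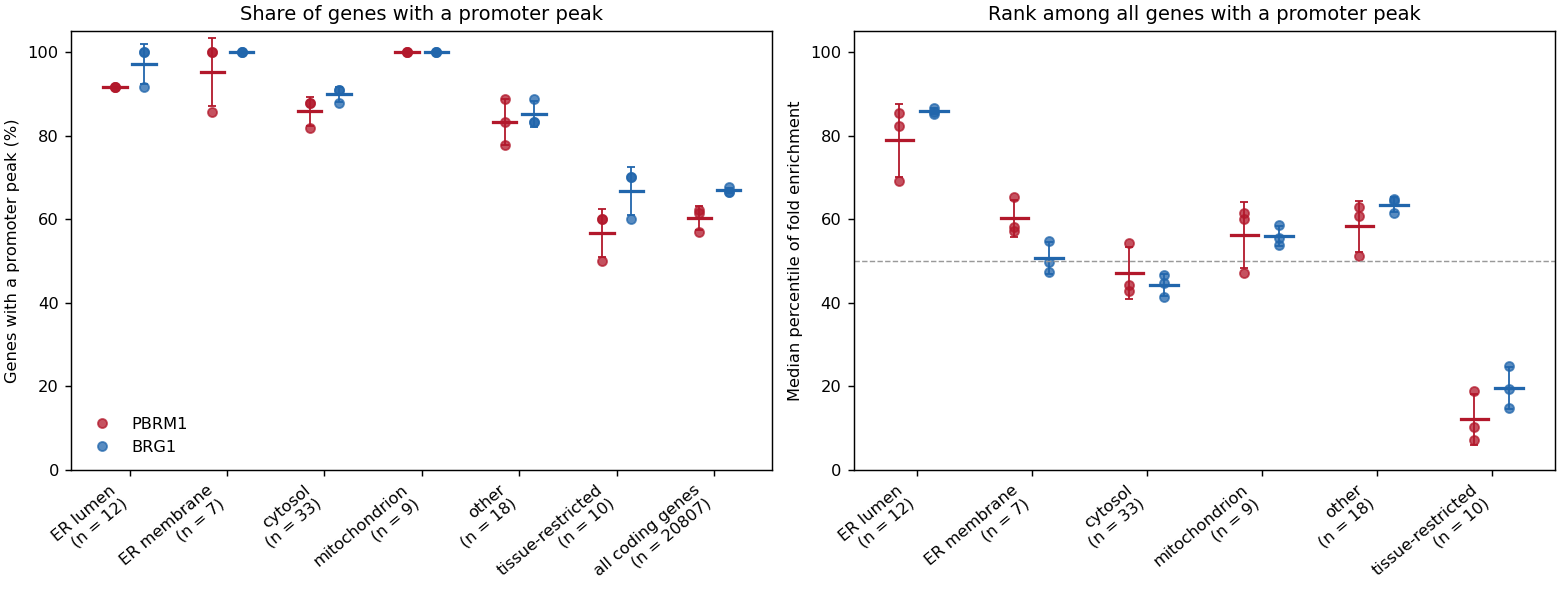
Share of genes with a promoter peak within 2000 bp of a TSS (left, percent) and median percentile of the strongest promoter peak (right) by class, with points for replicates, bars for means and whiskers for the SD of 3 replicates, and the tissue-restricted genes counted a second time as a set of their own. ER lumen genes rank above the other classes (78.9 and 85.9), while the dashed line marks percentile 50, the middle of all genes with a promoter peak.

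Promoter composition also differed between the classes. In the 300-base window at the 5′ end of the gene record, the median number of CpG dinucleotides was 23.5 in the ER lumen class, 15 in the ER membrane class, 15 in the cytosolic class, 25 in the mitochondrial class and 9 in the tissue-restricted set, against 16 over all members and 12 over all coding genes. Median GC content was 64.2% in the ER lumen class, 54.3% in the ER membrane class, 59.3% in the cytosolic class, 61.7% in the mitochondrial class and 55.3% over all coding genes. The part of base composition in the difference between the classes was not tested.

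Few members ranked differently between the antibodies. Of the 67 members with a peak in all 6 replicates, 8 had a higher percentile in every BRG1 than in every PBRM1 replicate, where 15.9% of the 11134 coding genes with a peak in all 6 did. The converse held for 5 members, beside 9.97% of those genes, so that neither count was above its background. The 8 with BRG1 above were *Hspa5*, *Hspa13*, *Dnajc25*, *Dnajb6*, *Dnajc4*, *Dnajc30*, *Dnajc5* and *Hspa12b*. *Dnajb6*, which suppresses aggregation of polyglutamine proteins, ranked at 49.1 ± 10.2 for PBRM1 and 82.7 ± 2.82 for BRG1. *Dnajc5*, the cysteine string protein of secretory vesicles, ranked at 62.8 ± 7.22 and 82.9 ± 10.7. The 5 with PBRM1 above were *Dnajb12*, *Dnajb2*, *Hspb6*, *Dnajc27* and *Hspb11*. *Hspb6*, the small heat shock protein HSP20 of smooth muscle, had the widest of these gaps, at 69.5 ± 23.4 for PBRM1 and 35.3 ± 2.75 for BRG1, and its start site lies close to that of *Proser3*. Both sets were named with their values in view.

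**Figure D3:**
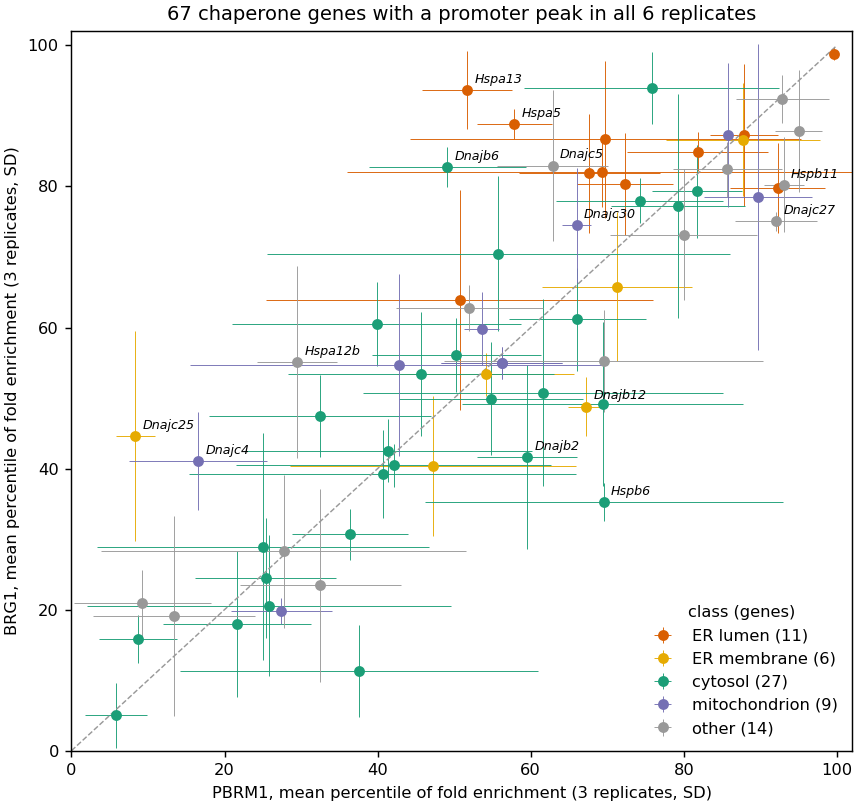
Mean percentile of the strongest promoter peak in the PBRM1 replicates (x axis) and the BRG1 replicates (y axis) for the 67 members with a peak in all 6 replicates, with SD whiskers (n = 3), classes by color and a dashed line at equal percentiles. Named genes are the 13 whose replicates did not overlap, and *Pdia4* is the orange point in the upper right corner.

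The peaks of both antibodies overlapped at most members, as they did over all genes. Of the 75 members with a promoter peak in both pooled lists, 73 had at least 1 overlapping pair and 2, *Hspb3* and *Dnajb13*, had none, while 99.1% of all coding genes with both peaks had an overlapping pair. The strongest peak of each antibody overlapped at 65 members, with a median distance of 70 bp between the summits. This stricter count was not taken over all coding genes, so it has no background here. Relative to the nearest TSS of the gene, the median summit of the members was at 16 bp for PBRM1 and -19 bp for BRG1 (positive downstream), where all coding genes had 8 and -18 bp. In the ER lumen class the medians were -72 and -21.5 bp, and 3 of 11 PBRM1 and 5 of 12 BRG1 summits were downstream of the TSS. In the members outside the 4 classes, 14 of 17 PBRM1 and 7 of 17 BRG1 summits were, beside 52.3% and 41.0% over all coding genes. The median pooled peak was 893 bp long for PBRM1 and 880 bp for BRG1, against 776.5 and 792 bp over all coding genes. Another coding gene has a TSS within 2000 bp of one of the member's own at 28 of 79 members, where 17.0% of all coding genes have such a neighbor, and at those members a peak can belong to either gene.

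**Figure D4:**
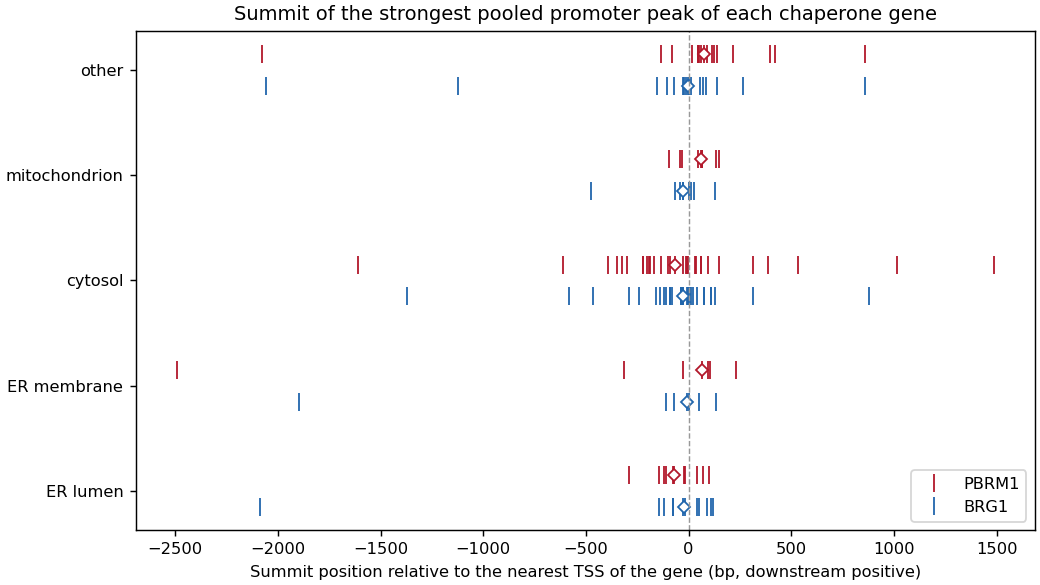
Position of the summit of the strongest pooled promoter peak relative to the nearest TSS of the gene (x axis, bp, positive downstream) by class, with 1 tick per gene and a diamond at the class median. Most summits lie close to the TSS, and the ER lumen medians are at -72 bp for PBRM1 and -21.5 bp for BRG1.

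Exact ER stress elements were found in 5 members in the 300-base window at the 5′ end of the gene record and in 7 when every TSS was searched, of which 4 and 5 belonged to the ER lumen class. The ER stress response element ERSE (CCAAT and CCACG with 9 bases between them, both strands) was in that window of 3 members, *Hsp90b1*, *Pdia6* and *Dnajc3*, and of 22 of 20807 coding genes (0.106%). *Hsp90b1* had it at 2 places, 1 on each strand. The element of *Hspa5* lay outside the window at the 5′ end of the gene record and was found when every TSS of a gene was searched, which gave 4 members among 35 genes (0.168%). The second element, ERSE-II (ATTGG and CCACG with 1 base between them), was in *Dnajb11* and in 16 genes overall (0.0769%). The unfolded protein response element UPRE (TGACGTGG, whose reverse complement shares CCACG with the other elements) was in *Dnajc11* and in 149 genes (0.716%), and with every TSS searched also in *Dnajc25* of the ER membrane class (354 genes, 1.70%). All of these places lay inside both pooled peaks. The ERSE nearest to the summits was 17 bp from the PBRM1 and 19 bp from the BRG1 summit in *Hsp90b1*, 24 and 17 bp in *Pdia6*, 83 and 79 bp in *Hspa5*, and 152 and 3 bp in *Dnajc3*. In *Dnajb11* the distances were 156 and 86 bp.

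A heat shock element (HSE, the 3 units GAA, TTC and GAA or TTC, GAA and TTC with 2 bases between neighbors, both strands) was in the window of 1 member, *Hspe1*, and of 101 coding genes (0.485%). With every TSS searched it was in 8 members, *Hspe1*, *Hspd1*, *Hspa8*, *Hsp90aa1*, *Hsph1*, *Dnaja1*, *Dnajb6* and *Dnajc1*, among 319 genes (1.53%). Each of these places lay inside both pooled peaks except that of *Dnajc1*. The overlapping pair of elements between *Hspd1* and *Hspe1* lies 127 and 132 bp from the PBRM1 summit and 201 and 206 bp from the BRG1 summit. A match to these letters is a description of the sequence, and a window without one says only that these exact letters are not in it.

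Outside promoters the members were close to all coding genes. Within the gene bodies and over 2000 bp from any annotated TSS, the pooled lists had 33 PBRM1 peaks in 19 members and 54 BRG1 peaks in 27 members, which is 24.1% and 34.2% of the members beside 27.7% and 35.2% of all coding genes. Of the PBRM1 peaks, 1, in *Dnajc16*, was met by a peak in all 3 replicates. For BRG1, 5 were, of which 2 lay in *Dnaja3* and the others in *Hspa8*, *Hspa12a* and *Dnajb8*. *Dnajb8* had no promoter peak in any list. The counts of peaks met in all 3 replicates were not taken over all coding genes, so they have no background here.

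Other genes of the folding pathways gave the setting. Of the other ER folding and quality control genes, 24 of 24 had a promoter peak in all 6 replicates, beside 53.5% of all coding genes. Their median percentile was 80.5 ± 3.16 for PBRM1 and 79.3 ± 2.17 for BRG1. By the mean over 6 replicates the highest was *Calr*, which encodes calreticulin, with 11.3 ± 2.87 fold for PBRM1 and 14.1 ± 0.603 for BRG1, and the lowest *Sec63*, of the translocation channel, with 4.37 ± 0.865 and 7.94 ± 0.412. These genes thus ranked near the ER lumen members. The regulators of the unfolded protein response ranked lower, at 47.3 ± 2.68 and 52.1 ± 9.73, with a peak in all 6 replicates at 10 of 11. Among them, *Eif2ak3*, which encodes PERK, had 6.70 ± 0.559 and 10.7 ± 0.274 fold, and *Atf6* had no peak in 1 PBRM1 replicate.

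HSF and cytosolic co-chaperone genes had a peak in all 6 replicates at 14 of 14, beside the same 53.5% of all coding genes. Their median percentiles were 60.6 ± 2.53 for PBRM1 and 66.4 ± 1.58 for BRG1. *Hsf1* had 7.12 ± 0.870 fold with PBRM1 and 9.76 ± 0.178 with BRG1, *Bag4* was highest (12.0 ± 2.36 and 12.4 ± 1.98) and *Bag2* lowest by the mean over 6 replicates (6.32 ± 1.28 and 7.42 ± 1.55). Subunits of the chaperonin TRiC and of prefoldin, which fold actin and tubulin, had one at 11 of 12, at 62.2 ± 7.44 and 62.4 ± 1.95. *Cct3* of TRiC had 10.8 ± 1.00 fold with PBRM1 and 19.6 ± 2.00 fold with BRG1, above every chaperone member with BRG1. Other mitochondrial folding and proteolysis genes had one at 9 of 9, at 74.9 ± 5.45 and 74.6 ± 4.69, led by *Hscb* in the mean over 6 replicates (12.5 ± 4.45 and 11.2 ± 0.565), with *Htra2* lowest (6.51 ± 1.27 and 7.53 ± 0.248). Among the lists read, the ER folding genes and the other mitochondrial folding genes therefore had the highest median ranks beside the ER lumen members.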

How the data were processed

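For each of the PBRM1 and BRG1 antibodies, 3 replicate peak lists and 1 pooled peak list of ChIC-Seq were read. According to the methods, the authors aligned the trimmed pairs to GRCm38/mm10 with Bowtie2 and removed reads of low mapping quality and duplicates, and the list headers give MACS 2.2.7.1 without a control file, a q-value cutoff of 0.05 and a regional background of 10000 bp. As deposited, a peak has the pileup signal at its summit, the fold enrichment of that pileup against local background, and the −log10 of its q-value, all written by the authors' MACS call. The submitters' processing notes name the build GRCm38.p5.

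From these, promoter peaks were assigned with GENCODE vM21, all transcripts, within 2000 bp of a TSS. The strongest by fold enrichment was kept per gene, and percentiles were taken within each list. Antibodies were compared with exact permutation tests over replicates, and classes with exact sign-flip tests over the replicates of an antibody, all two-sided. The labels do not say whether replicates are separate preparations, so p-values measure the spread between libraries. Fragment totals are depths of the libraries, and weaker sites may be missed in the shallower ones. Values are given for all ER lumen, cytosolic core and mitochondrial core members and the next 5 strongest, and other members by count or range, where any further member named was picked with its values in view. The members, classes and lists were chosen with earlier results of these data known. *Mbtps2*, *Vbp1* and *Cct6a* of the lists are not coding genes of chromosomes 1 to 19 in this annotation. Thresholds, promoter distance, annotation, list length, replicates and members were varied. Steps were tested on simulated data and run in Python 3.11.15 with numpy 2.4.6, pandas 2.3.3 and matplotlib 3.10.9.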

Additional observations from a re-analysis of the deposited data

How the results depend on the processing

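The ER lead in median fold enrichment kept its direction under every alternative, from 1.09 to 2.27 for PBRM1 and from 2.61 to 3.87 for BRG1, leaving out each replicate included (1.09 to 1.63 and 2.75 to 3.01). The ER lead in the share of genes with a promoter peak reversed for BRG1 with a promoter distance of 1000 bp (-0.425 points) and with 1 TSS per gene (-1.17 points), and ranged from 0.372 to 15.8 points for PBRM1, where leaving out replicates gave 6.86 to 7.26. Without members that have a coding neighbor, an alternative chosen after seeing the data, the lead in fold enrichment was 1.60 and 2.61. The share of members was lower with PBRM1 throughout, by 1.69 to 14.3 points, the last with a fold enrichment of at least 5. That threshold left 46 members with a peak in all PBRM1 replicates. Exact elements were in 6 members in the main window, in 10 with a window of 500 bases before to 100 after the TSS, and in 15 with every TSS searched. Of the 34 genes recomputed one by one, few moved in mean fold enrichment by more than 1 SD. These were *Hspb9* with BRG1 at 500 and 1000 bp (4.59), *Dnajc22* with BRG1 at 5000 bp (8.20) and *Dnajc12* with BRG1 and 1 TSS per gene (4.48). Leaving out a replicate cannot move a mean of 3 that far, and a fold enrichment threshold either keeps the strongest peak or drops it. A gene that lost its peak in a replicate was not recomputed, as *Dnajc10* with PBRM1 at a fold enrichment of at least 5. Few moves under these settings are therefore no sign of stability. No test could pass 0.05 with 3 replicates. With the replicate number as a block, the difference in the share of members was the same -3.38 points (exact sign-flip permutation p = 0.5, where the smallest is 0.25). Same-numbered libraries did not deviate together (correlations of -0.0188 to 0.00479 over 11134 genes), so the numbers were not treated as pairs.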
